A study of Mus musculus with 32 samples.

Results

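The control libraries of a mouse hepatocyte line, AML12, were set against those of a mouse cardiomyocyte line, HL-1. They make up 16 of the 32 RNA-seq libraries in the series and were chosen by their labels alone. AML12 cells that received the control treatment gave 4 libraries at 17 h and 4 at 25 h. HL-1 cells gave 4 at 16 h and 4 at 28 h, all kept in medium taken from AML12 cultures that had not been synchronized with DEX. The wider study concerned rhythmic signals passing from AML12 to HL-1 cells. Its DEX-treated AML12 cells and the HL-1 cells given medium from such cultures were not used here. AML12 was derived from hepatocytes of a mouse carrying a transgene for the growth factor TGFα, and HL-1 from an atrial tumour lineage of a mouse carrying SV40 large T antigen. Each is 1 line, and the labels do not state whether the 4 libraries per group stem from 4 cultures. The p-values below describe only how far these libraries scatter, which may be technical.

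The genes compared were the 16345 protein-coding genes whose Ensembl ID, without its version, is in both deposited count tables. Of these, 12470 passed the low-count filter and were tested, and 3875 were not. Levels are in CPM, counts set to a common library total and scaled for library composition. Differences are log2 HL-1 minus AML12 with their standard error from edgeR's quasi-likelihood test, and a gene passed at a Benjamini-Hochberg adjusted p under 0.05 over all tested genes. Depth was alike, at 15032450 to 17409358 counts per library in AML12 and 15734197 to 18104661 in HL-1, and 95.6% to 96.9% of the counts fell in the joined genes. The line, the count table with its annotation, the medium and the sampling times all change together, so their parts in any difference cannot be told apart.

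Hepatocytes are polarized epithelial cells of the liver. A network of transcription factors that includes HNF4α and the FOXA factors drives their plasma proteins and detoxifying enzymes, and keratins 8 and 18 form their cytoskeleton. Cardiomyocytes contract with sarcomeres built from heart isoforms of myosin, actin and troponin, and atrial cells are known for secreting the natriuretic peptide encoded by Nppa. They pass current through gap junctions that contain connexin 43, encoded by Gja1.

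Promoter windows of 3 genes are shown because the liver genes Hnf4a and Alb parted in AML12 and because Des, for the muscle filament desmin, was the marker gene with the largest difference in favour of HL-1. The windows come from RefSeq on GRCm38.p6 and run from 250 bases before to 50 bases after the start, on the plus strand for all 4 starts. They lie at chr2:163506607-163506906 and chr2:163546905-163547204 for the 2 starts of Hnf4a, at chr5:90460620-90460919 for Alb and at chr1:75360042-75360341 for Des. Capitals mark the CCAAT box, a common promoter element that reads as ATTGG where it lies on the other strand. They also mark CAGCTG, a form of the E box that reads the same on both strands. Other forms of the E box were not searched. The matches to one motif do not overlap those to the other.
Hnf4a, upstream start: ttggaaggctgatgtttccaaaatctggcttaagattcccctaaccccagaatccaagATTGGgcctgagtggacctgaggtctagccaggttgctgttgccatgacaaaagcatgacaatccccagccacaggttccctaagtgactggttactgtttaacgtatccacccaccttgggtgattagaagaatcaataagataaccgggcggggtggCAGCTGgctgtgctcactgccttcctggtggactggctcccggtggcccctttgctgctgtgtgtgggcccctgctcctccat
Hnf4a, downstream start: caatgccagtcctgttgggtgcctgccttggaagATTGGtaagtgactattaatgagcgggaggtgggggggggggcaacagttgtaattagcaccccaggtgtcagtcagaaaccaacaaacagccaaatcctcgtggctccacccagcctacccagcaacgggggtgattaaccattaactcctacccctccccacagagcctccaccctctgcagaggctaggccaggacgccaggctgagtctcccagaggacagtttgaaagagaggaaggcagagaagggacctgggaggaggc
Alb: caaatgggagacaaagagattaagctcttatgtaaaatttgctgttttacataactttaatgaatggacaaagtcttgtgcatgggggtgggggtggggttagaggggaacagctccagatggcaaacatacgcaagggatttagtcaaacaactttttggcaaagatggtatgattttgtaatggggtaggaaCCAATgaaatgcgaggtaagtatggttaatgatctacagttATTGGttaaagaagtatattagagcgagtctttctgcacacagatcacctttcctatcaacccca
Des: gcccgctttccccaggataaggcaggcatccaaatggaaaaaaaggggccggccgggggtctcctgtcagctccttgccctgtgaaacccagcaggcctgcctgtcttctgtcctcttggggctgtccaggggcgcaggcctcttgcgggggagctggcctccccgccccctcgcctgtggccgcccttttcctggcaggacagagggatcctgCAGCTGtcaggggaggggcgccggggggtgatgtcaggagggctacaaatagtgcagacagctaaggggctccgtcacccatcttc
The Alb window holds a pair of CCAAT boxes and each Hnf4a window holds 1, while the upstream Hnf4a window and the Des window each hold 1 CAGCTG. Among all 32851 promoter windows of this length, 37.4% hold a CCAAT box and 16.3% hold CAGCTG. The motifs were picked after the windows had been read, and a match of letters describes the window and shows no binding.

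The 6 marker genes separated the lines, though not all in the direction of the labels. Hnf4a, a master regulator of hepatocytes, lay between 218 and 242 CPM in the 8 AML12 libraries (median 227) and had 0 counts in all 8 HL-1 libraries. AML12 was thus at least 9749.9-fold higher, measured against 3 counts over the 8 HL-1 libraries. Apob, for the protein of liver lipoproteins, lay between 150.2 and 209 CPM in AML12 (median 172) and between 5.13 and 8.67 in HL-1 (median 7.74), a log2 difference of -4.55 ± 0.06. Both liver genes were higher in every AML12 library than in any HL-1 library.

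Krt19, a keratin of bile duct and simple epithelia, ran from 1454 to 1916 CPM in AML12 (median 1760) and from 48.3 to 199.7 in HL-1 (median 113), a log2 difference of -4.11 ± 0.04. The HL-1 libraries split by time, with all 4 at 28 h above all 4 at 16 h, and none came near AML12. Gja1 ran from 13.1 to 21.3 CPM in AML12 (median 16.7) and from 502 to 552 in HL-1 (median 525), at 4.96 ± 0.04. Des ran from 2.35 to 3.37 CPM in AML12 (median 2.87) and from 346 to 668 in HL-1 (median 519.7), at 7.43 ± 0.05. These muscle-associated genes were higher in every HL-1 library than in any AML12 library.

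Tnnt2, which encodes cardiac troponin T, went the other way. It lay between 50.1 and 60.5 CPM in AML12 (median 56.2) and between 22.6 and 31.9 in HL-1 (median 27.1). Every AML12 library stood above every HL-1 library, and the log2 difference of -1.03 ± 0.04 passed edgeR's quasi-likelihood test (Benjamini-Hochberg adjusted p = 1.2e-20).

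**Figure D1:**
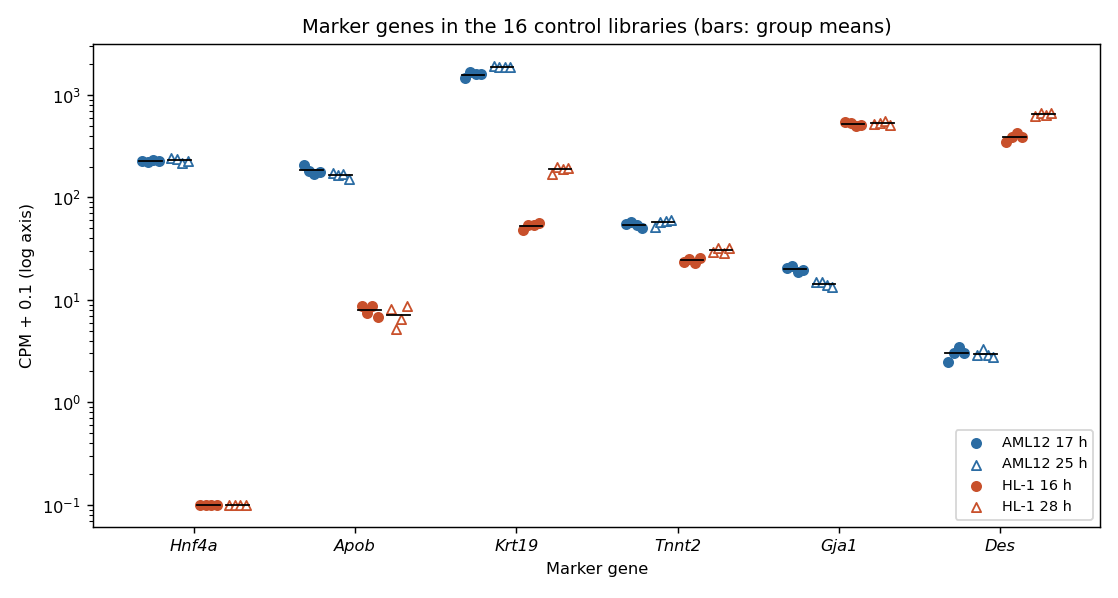
CPM plus 0.1 on a log axis for the 6 marker genes, with 1 point per library and bars at the means of the 4 groups. Hnf4a had 0 counts in all 8 HL-1 libraries, Des and Gja1 were higher in HL-1, and Tnnt2, the cardiac troponin, was higher in AML12.

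The label of HL-1 as a cardiomyocyte line was checked further against genes that define heart muscle. Across the 8 HL-1 libraries together there were 0 counts for Myh6 (the main cardiac myosin of the adult mouse), Nppa, Pln (the regulator of the cardiac calcium pump), Myl7, Myl2, Tbx5 and Hand2. A total of 0 counts allows a level of up to 0.0234 CPM. Actc1, for cardiac actin, Actn2 and Myh7 had 1 count each over the 8 libraries, and Ryr2, for the calcium release channel, had 58. Nkx2-5, a transcription factor of the early heart, ran from 1.58 to 4.01 CPM in HL-1 (median 2.67) and from 3.57 to 5.69 in AML12 (median 4.19). The ranges of Nkx2-5 overlapped, and its fitted difference of -0.68 ± 0.13 put AML12 higher. Apart from Tnnt2 above and Nkx2-5, the libraries labelled HL-1 therefore lacked or nearly lacked the heart muscle transcripts checked here. The line names below are those of the labels.

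The same HL-1 libraries held transcripts known from the skeletal muscle lineage, in a list of 23 genes drawn up after values had been seen and so not tested as a list. The myogenic regulators Myod1 and Myf5 ran from 15.9 to 27.5 CPM (median 19.1) and from 25.4 to 34.5 CPM (median 30.8). Neither is in the AML12 table, where a missing gene cannot be read as 0 counts. Chrna1, for a subunit of the muscle acetylcholine receptor, ran from 64.0 to 82.7 CPM in HL-1 (median 73.2) and from 0.129 to 0.605 in AML12 (median 0.353). Of the 23 genes, 12 reached 10 CPM on average in HL-1 and 8 stayed under 1 CPM. Those under 1 CPM included Myog, the regulator of muscle differentiation, with 4 counts over the 8 libraries, and Dmd, for dystrophin, with 0. For scale, at least 8015 of the 16345 joined genes reached 10 CPM on average in both lines. The count of 12 therefore does not set the list apart. Of its 11 tested genes, 9 were higher in HL-1 and 2 in AML12, against 45.6% and 47% of all tested genes.

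**Figure D2:**
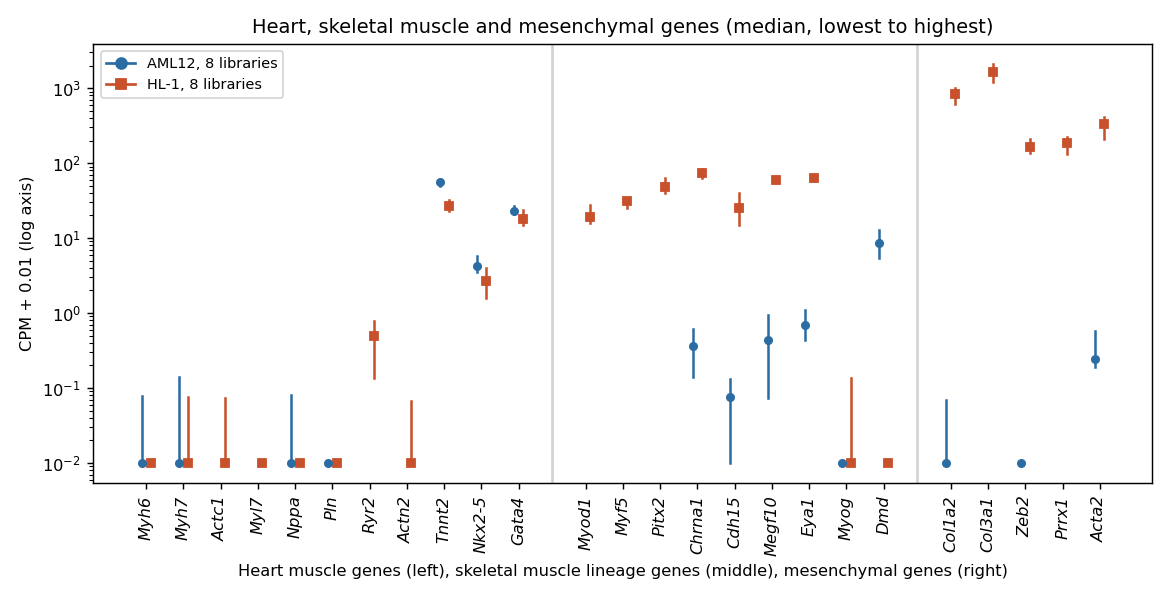
Medians (points) and lowest to highest values (lines) over 8 libraries per line, as CPM plus 0.01 on a log axis, for heart muscle, skeletal muscle lineage and mesenchymal genes. Genes without an AML12 mark are not in the AML12 table. Most of the heart muscle genes shown lie at or near 0 in HL-1, while Myod1, Myf5 and Chrna1 have medians of 19.1, 30.8 and 73.2 CPM.

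The liver label of AML12 was checked in the same way. Alb, for serum albumin, lay between 0.490 and 1.27 CPM in AML12 (median 0.720) and had 0 counts in HL-1, which makes AML12 at least 34.9-fold higher. Ttr and Apoa1, for further abundant plasma proteins of liver, had AML12 medians of 0.791 and 0.763 CPM and 0 counts in HL-1. Per kilobase of exon, the AML12 mean level was 47.3 CPM for Hnf4a and 0.347 CPM for Alb, the genes whose promoter windows both hold a CCAAT box. Epcam, a marker of bile duct and progenitor epithelium, is not in the AML12 table. Genes of other cell types were summed as well. The 12 joined endothelial genes summed to 16.6 to 18.0 CPM in AML12 and 12.4 to 26.6 in HL-1. The 10 joined immune cell genes summed to 187 to 244 CPM in AML12 and 25.7 to 43.0 in HL-1. Most of the AML12 sum came from Cd14, a receptor for bacterial lipopolysaccharide, with a mean of 199 CPM. In bulk samples, fewer cells of a type and less RNA per cell cannot be told apart.

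Across all tested genes, 11554 (92.7%) passed, with 45.6% higher in HL-1 and 47% higher in AML12, and the median difference was -0.03. The first principal component held 94.6% of the variance and separated the lines. Because so many genes passed, a stricter count was kept beside it: at least 2-fold, with no overlap between the 8 and 8 libraries. That count held 20.3% of the genes with HL-1 higher and 21.9% with AML12 higher. Gene lists are described against these shares, and no list was given a test of its own.

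The transcription factors of the liver network were nearly all higher in AML12. Of 15 tested genes in the list, 14 were higher in AML12, all 14 by the stricter count, and 1 was higher in HL-1. The median difference was -7.45, or -6.59 with the 4 genes at 0 counts in HL-1 set at their bounds. Cebpb, a factor of liver and of inflammation, ran from 49.3 to 80.7 CPM in AML12 (median 61.6) and from 5.22 to 7.95 in HL-1 (median 6.58), at -3.26 ± 0.05. Foxa3, a FOXA factor of the liver, ran from 9.65 to 14.7 CPM in AML12 (median 12.3) and from 0 to 0.176 in HL-1, at -7.45 ± 0.18. The ranges of these genes were far apart.

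Foxa2, a pioneer factor of endoderm, was present in both lines, between 70.6 and 79.0 CPM in AML12 (median 74.0) and between 10.8 and 17.2 in HL-1 (median 13.5). Prox1, a regulator of liver and lymphatic development, had a median of 19.0 CPM in AML12 and 0 counts in HL-1, at least 810-fold higher. Nr1h4, the bile acid receptor, had a median of 21.9 CPM in AML12 and 2 counts over the HL-1 libraries, a ratio of 1453 (exact 95% interval 402 to 12000). The exception was Cebpa, a regulator of mature hepatocytes and fat cells, at 4.70 to 7.59 CPM in AML12 and 7.56 to 10.7 in HL-1. Its ranges touched and the difference was 0.59 ± 0.08.

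Products of the liver were split between genes that AML12 expressed strongly and genes that it barely expressed. Of 28 tested secreted liver proteins, 23 were higher in AML12 and 5 in HL-1, with a median of -5.64, or -5.09 with the 6 genes at 0 counts set at their bounds. Yet 26 of the 47 joined genes of that list were under 1 CPM in AML12, and 9 reached 10 CPM. C3, the central complement protein, ran from 2191 to 2856 CPM in AML12 (median 2535) and from 3.24 to 76.9 in HL-1 (median 34.7), at -7.21 ± 0.04. Rbp4, the carrier of retinol in plasma, ran from 246 to 319 CPM in AML12 (median 279) and from 0 to 0.256 in HL-1, at -13.08 ± 0.08. C3 made up most of the list's summed level, which was 3054 to 3647 CPM in AML12 and 95.3 to 239 in HL-1.

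Gc, the vitamin D carrier, and Hpx, which binds haem, had AML12 medians of 67.7 and 60.7 CPM and stayed under 1 CPM in every HL-1 library.

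Liver enzymes and transporters showed a like split. Of 20 tested genes, 16 were higher in AML12, 3 in HL-1 and 1 did not pass, with a median of -3.91. Pklr, the liver and red cell form of pyruvate kinase, ran from 168 to 186 CPM in AML12 (median 178) and had 0 counts in HL-1, at least 7586-fold higher. Abcc3, an exporter of bile acids and conjugates, ran from 764 to 879 CPM in AML12 (median 811) and from 9.14 to 19.6 in HL-1 (median 14.2), at -5.89 ± 0.04. In both cases no HL-1 library approached the AML12 range.

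Ass1, a urea cycle enzyme, was the other way round, at 19.2 to 34.6 CPM in HL-1 (median 28.1) and 1 count over the AML12 libraries. Its ratio was 3464 in favour of HL-1 (exact 95% interval 621 to 136870). Of the 42 joined genes in this list, 28 were under 1 CPM in AML12 and 33 in HL-1.

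Epithelial genes formed one of the sharpest contrasts. Of 33 tested junction, keratin and epithelial regulator genes, 29 were higher in AML12, 28 of them by the stricter count, and 4 were higher in HL-1, with a median of -5.22. Krt8 ran from 2464 to 3146 CPM in AML12 (median 2824) and from 0.0646 to 0.381 in HL-1 (median 0.184), at -13.75 ± 0.05. Its filament partner Krt18 ran from 1437 to 1935 CPM in AML12 (median 1651) and from 0 to 0.129 in HL-1, at -15.36 ± 0.07. Cdh1, the epithelial adhesion protein E-cadherin, ran from 286 to 312 CPM in AML12 (median 301) and from 0 to 0.317 in HL-1, at -11.87 ± 0.08. HL-1 libraries thus lay at the edge of detection for the keratin pair and for E-cadherin.

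Cldn2, a pore-forming tight junction protein, lay between 375 and 460 CPM in AML12 (median 422) and had 0 counts in HL-1, at least 17791-fold higher. Dsg2, a desmosomal cadherin also used by heart muscle, had an AML12 median of 432 CPM and 0 counts in HL-1, at least 18493-fold higher. Not all junction genes followed. Tjp1, a tight junction scaffold found in many cells, ran from 341 to 373 CPM in AML12 and from 239 to 434 in HL-1, and these ranges overlapped. Pkp1, a desmosomal plaque protein, was higher in HL-1 at 23.7 to 111 CPM (median 64.4) than in AML12 at 12.4 to 20.8 (median 15.8).

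Bile duct and progenitor genes were mixed. Of 15 tested, 11 were higher in AML12 and 4 in HL-1, with a median of -1.55. Krt7, a duct keratin, ran from 354 to 445 CPM in AML12 (median 397) and from 0 to 0.129 in HL-1. Sox9, a regulator of duct and cartilage cells, was higher in HL-1, at 59.5 to 134 CPM (median 101) against 34.1 to 44.3 in AML12 (median 38.3). Aqp1, a water channel of ducts, endothelium and kidney, was also higher in HL-1, at 281 to 381 CPM (median 323) against 2.27 to 5.81 (median 4.34). The ranges did not overlap for these 3 genes.

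The 12 largest differences in favour of AML12 held genes known from kidney and urogenital epithelium, and a list of 26 such genes was then read without a test. Pax2, a transcription factor of the developing kidney, ran from 328 to 396 CPM in AML12 (median 358) and had 0 counts in HL-1, at least 15301-fold higher. Cdh16, the kidney cadherin, ran from 395 to 430.3 CPM in AML12 (median 416) and had 0 counts in HL-1, at least 17864-fold higher. Cdh6 had an AML12 median of 563 CPM against 1 count over the HL-1 libraries. Pkhd1, for the protein of polycystic disease in kidney and bile duct, had an AML12 median of 212 CPM and 0 counts in HL-1.

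Of 15 tested genes in that list, 11 were higher in AML12 and 4 in HL-1, against 47% and 45.6% of all tested genes. Of its 23 joined genes, 9 reached 10 CPM in AML12 and 10 stayed under 1 CPM, among them the transporters of mature tubules Slc34a1, with 4 counts over the AML12 libraries, and Aqp2, with 14. At least 8015 of all 16345 joined genes reached 10 CPM on average in both lines, so the count of 9 does not set the list apart. Eya1, a regulator of kidney and muscle progenitors, was higher in HL-1, with a median of 63.1 CPM against 0.684 in AML12.

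**Figure D3:**
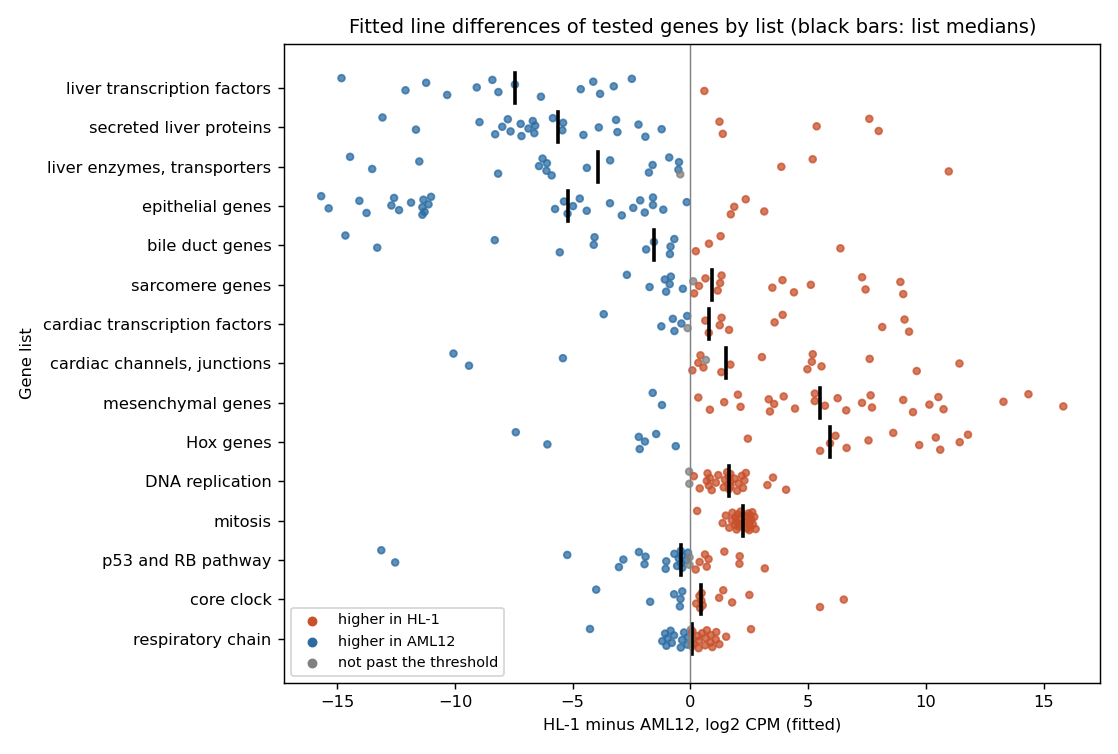
Fitted log2 differences, HL-1 minus AML12, for the tested genes of 15 lists, 1 point per gene coloured by call, with black bars at the list medians. The liver and epithelial lists lie mainly to the left (AML12 higher), the mesenchymal, Hox, replication and mitosis lists mainly to the right.

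Sarcomere genes leaned to HL-1, though it lacked or nearly lacked the heart isoforms Myh6, Myh7, Actc1, Myl2 and Myl7. The heart isoform Tnnt2 was present in both lines. Of 22 tested, 14 were higher in HL-1, 7 in AML12 and 1 did not pass, with a median of 0.90, and the summed levels overlapped, at 2278 to 3034 CPM in AML12 and 2232 to 2666 in HL-1. Tpm2, a tropomyosin of skeletal and smooth muscle, ran from 159 to 187 CPM in HL-1 (median 178) and from 0.843 to 1.41 in AML12 (median 1.11), at 7.29 ± 0.06. Nexn, an actin-binding protein of the Z disc, ran from 55.2 to 90.1 CPM in HL-1 (median 69.1) and from 0.0612 to 0.210 in AML12, at 8.91 ± 0.09. Both lay far above AML12 in every HL-1 library.

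Ankrd1, a stretch-responsive protein of the sarcomere also induced in epithelial cells, ran from 1052 to 1512 CPM in AML12 (median 1234) and from 165 to 225 in HL-1 (median 187), at -2.70 ± 0.03. Tpm1 had overlapping ranges, at 714 to 928 CPM in AML12 and 552 to 766 in HL-1. Its difference was -0.32 ± 0.02 over both times and 0.04 in the earlier libraries alone.

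Of 17 tested cardiac transcription factors, 10 were higher in HL-1, 6 in AML12 and 1 did not pass, with a median of 0.78 that became -0.11 among genes overlapping no other gene. Mef2c, a regulator of heart and skeletal muscle, ran from 10.05 to 12.4 CPM in HL-1 (median 10.9) and had 2 counts over the AML12 libraries, a ratio of 690 (exact 95% interval 191 to 5703). Gata4, a factor of heart and endoderm, was present in both lines, at 21.2 to 26.4 CPM in AML12 and 14.7 to 23.8 in HL-1, with overlapping ranges. Among 18 tested genes for cardiac channels, calcium handling and gap junctions, 14 were higher in HL-1, 3 in AML12 and 1 did not pass, with a median of 1.50.

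In that group, Jph2, which couples the surface membrane to calcium stores in muscle, ran from 19.8 to 27.9 CPM in HL-1 (median 24.9) against 3 counts over the AML12 libraries. Cacna1g, a T-type calcium channel of pacemaker cells, was higher in AML12, at 34.8 to 44.5 CPM (median 39.0), and reached at most 0.197 in HL-1. Of the 41 genes of this list in the HL-1 table, 25 were under 1 CPM in HL-1.

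Mesenchymal and fibroblast genes were higher in HL-1 almost throughout. Of 28 tested, 26 were higher in HL-1, 24 of them by the stricter count, and 2 were higher in AML12, with a median of 5.49. Their summed level was 12751 to 18302 CPM in HL-1 and 5117 to 5985 in AML12. Vim, the intermediate filament of mesenchymal cells and of most cultured lines, was high in both, at 5803 to 6975 CPM in HL-1 (median 6510) and 2279 to 2519 in AML12 (median 2412), with a difference of 1.43 ± 0.03. Its ranges did not overlap.

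Matrix genes differed more. Col1a2, a chain of type I collagen, ran from 619.8 to 988 CPM in HL-1 (median 829) and had 1 count over the AML12 libraries, a ratio of 101460 (exact 95% interval 18209 to 4007300). Lox, which crosslinks collagen, ran from 573 to 1781 CPM in HL-1 (median 1137) and also had 1 count in AML12, a ratio of 146070 (exact 95% interval 26217 to 5769700). Col1a1, the partner chain of type I collagen, was detected in both lines, at 103 to 221 CPM in HL-1 (median 176) and 3.03 to 5.04 in AML12 (median 4.46).

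Zeb2, a regulator of the mesenchymal state and a repressor of E-cadherin, was also higher in HL-1. It ran from 135 to 208 CPM in HL-1 (median 164) and had 0 counts in AML12, at least 6984-fold higher. Col3a1 and Prrx1, a collagen and a limb mesenchyme factor, had HL-1 medians of 1627 and 183 CPM. They are not in the AML12 table and were not compared. The exceptions in the list were Fbln2 and Cdh2, for N-cadherin. Cdh2 ran from 154 to 176 CPM in AML12 (median 164) and from 63.7 to 81.7 in HL-1 (median 71.2). N-cadherin is the main cadherin of heart muscle and is also found in hepatocytes.

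Several genes among the 12 largest differences in favour of HL-1 lie outside the fixed lists. F2r, the thrombin receptor, ran from 237 to 276 CPM in HL-1 (median 259) and had 1 count over the AML12 libraries. Cd34, a surface protein of vascular and mesenchymal progenitors, ran from 227 to 289 CPM in HL-1 (median 248) and also had 1 count in AML12. Lclat1, an acyltransferase that remodels cardiolipin, had an HL-1 median of 124 CPM and 0 counts in AML12, at least 5125-fold higher.

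Hox genes, which record position along the body axis, were divided by cluster. Of 19 tested, 12 were higher in HL-1 and 7 in AML12. All 4 tested genes of the a cluster and all 8 of the c cluster were higher in HL-1, and all 7 tested genes of the b cluster were higher in AML12. All 9 genes of the d cluster stayed under 1 CPM in HL-1, as did the 3 of them that are in the AML12 table in AML12.

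In HL-1 the strongest Hox genes were of posterior type. Hoxc10 ran from 51.4 to 75.1 CPM in HL-1 (median 65.9) and from 0 to 0.121 in AML12, at 10.60 ± 0.12. Hoxa9 ran from 41.9 to 57.4 CPM in HL-1 (median 48.9) against 1 count over the AML12 libraries, a ratio of 6060 (exact 95% interval 1087 to 239380). Hoxa10 and Hoxa11 had HL-1 medians of 49.5 and 24.5 CPM and are not in the AML12 table.

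AML12 in turn expressed Hoxb13, known from the hindgut and urogenital tract, at 21.2 to 27.4 CPM (median 22.2), against 0.0646 to 0.767 in HL-1 (median 0.314). Hoxb6 lay between 6.44 and 14.0 CPM in AML12 (median 10.2) and between 2.00 and 6.20 in HL-1 (median 3.57). The ranges of these b cluster genes did not overlap.

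**Figure D4:**
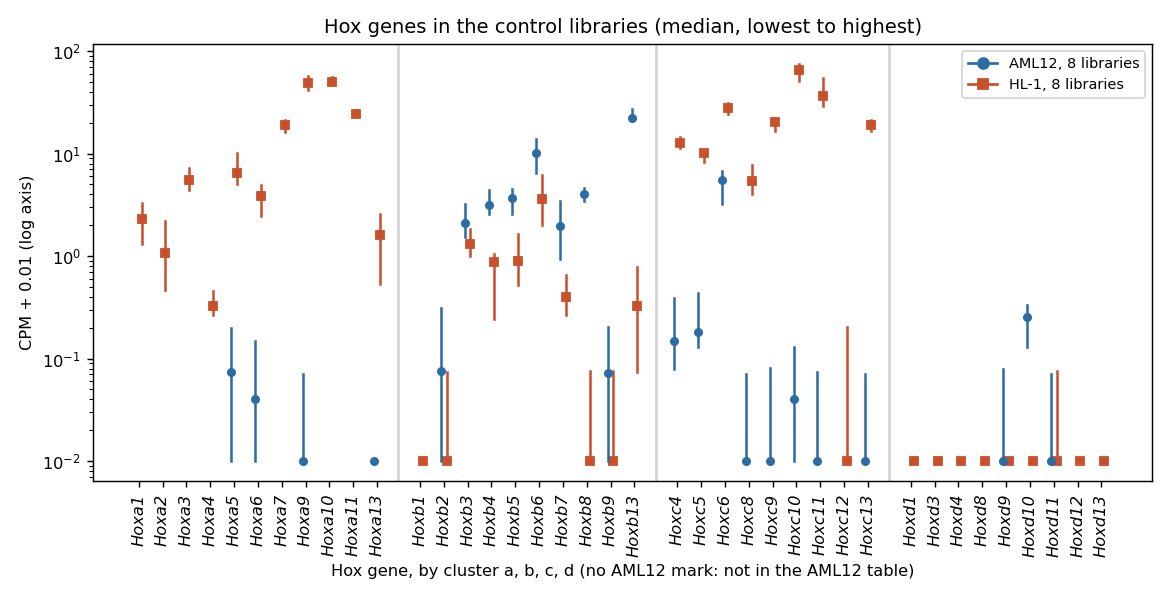
Medians and lowest to highest values over 8 libraries per line of the Hox genes, as CPM plus 0.01 on a log axis, ordered by cluster and number. HL-1 levels are seen in the a and c clusters up to a median of 65.9 CPM for Hoxc10, AML12 levels in the b cluster up to 22.2 CPM for Hoxb13.

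Genes of cell division were higher in HL-1. Of 30 DNA replication genes, 28 were higher in HL-1, 21 of them by the stricter count, and 2 did not pass, with a median of 1.62. Of 30 mitosis genes, all 30 were higher in HL-1, 29 by the stricter count, with a median of 2.24. The HL-1 sums were 3022 to 5296 CPM for replication and 6902 to 11374 for mitosis, against 1172 to 1761 and 1561 to 2694 in AML12.

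Rrm2, a subunit of ribonucleotide reductase, ran from 525 to 822 CPM in HL-1 (median 692) and from 41.5 to 82.7 in AML12 (median 61.2), at 3.50 ± 0.04. Cdk1, the kinase of mitotic entry, ran from 244 to 451 CPM in HL-1 (median 343) and from 44.4 to 81.1 in AML12 (median 59.7), at 2.50 ± 0.03. Neither gene overlapped between the lines. Pold1, a DNA polymerase subunit, did not pass, with means of 49.6 ± 15.3 CPM in HL-1 and 49.7 ± 2.74 in AML12 (SD, n = 8).

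Tumour suppressor genes of the RB pathway stood apart at 1 locus. Cdkn2a, which encodes the inhibitors p16 and p19Arf, ran from 90.8 to 120 CPM in AML12 (median 103) and had 2 counts over the HL-1 libraries, a ratio of 6730 (exact 95% interval 1863 to 55577). Its neighbour Cdkn2b, for p15, ran from 65.9 to 77.2 CPM in AML12 (median 70.6) and had 0 counts in HL-1, at least 3026-fold higher. In the GENCODE M21 annotation of GRCm38 they lie at chr4:89274471-89294653 and chr4:89306299-89311039. Mtap, a coding gene nearby at chr4:89137122-89181081, was chosen after its values were seen and had 202 to 228 CPM in HL-1 (median 212) against 47.5 to 62.5 in AML12 (median 55.2). Counts at or near 0 in HL-1 were thus seen for the neighbouring pair and not for Mtap.

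Of the 30 genes of the p53 and RB pathways, 19 were higher in AML12, 9 in HL-1 and 2 did not pass, with a median of -0.39. Trp53 itself did not pass, at 150.3 to 176 CPM in AML12 and 140.1 to 186 in HL-1. Pmaip1, which encodes the cell death protein NOXA, ran from 114 to 177 CPM in AML12 (median 138) and from 1.97 to 7.05 in HL-1 (median 3.62), at -5.23 ± 0.06. Ccnd2, a D-type cyclin, was higher in HL-1, at 130.1 to 169 CPM (median 145) against 14.2 to 19.2 (median 16.3).

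Ligands and receptors were read because the study concerned signals passing from AML12 to HL-1. Of 41 tested ligands, 19 were higher in each line and 3 did not pass. Of 42 tested receptors, 23 were higher in HL-1, 18 in AML12 and 1 did not pass. These shares lie near those of all tested genes, and the pairs named here were chosen after their values were seen.

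Pdgfb, a growth factor for mesenchymal cells, ran from 195 to 379.6 CPM in AML12 (median 269) and from 2.86 to 4.78 in HL-1 (median 4.44), at -6.03 ± 0.05. Its receptor gene Pdgfrb ran from 85.7 to 116 CPM in HL-1 (median 104) and from 0.205 to 0.708 in AML12 (median 0.487), at 7.71 ± 0.08. Ligand and receptor were thus each high in a different line. Fgf1 had a median of 54.6 CPM in AML12 and 0.129 in HL-1. Of its receptor genes, Fgfr1 had a median of 149.8 CPM in HL-1 and 1 count over the AML12 libraries, but Fgfr2, Fgfr3 and Fgfr4 were higher in AML12. Their medians there were 18.0, 46.2 and 51.2 CPM, against 1.29, 1.87 and 0.0603 in HL-1.

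Lif, a cytokine of the interleukin 6 family, ran from 62.9 to 145 CPM in AML12 (median 102) and from 5.31 to 22.2 in HL-1 (median 15.2). Lifr, its receptor, ran from 61.4 to 79.7 CPM in HL-1 (median 68.8) and had 0 counts in AML12, at least 2923-fold higher. Jag1 had a median of 234 CPM in AML12 and 12.8 in HL-1, while Notch3, a receptor for Jagged proteins, had a median of 136 CPM in HL-1 and 0.191 in AML12. Levels of other Notch receptor genes are not given here, so this pair does not describe the receptor family. Wnt7b had a median of 317 CPM in AML12 and 15.0 in HL-1, while Fzd1, a Wnt receptor, had a median of 89.5 CPM in HL-1 and 0 counts in AML12. Of other Wnt receptor genes, Fzd6 also had 0 counts in AML12, but Fzd2 and Fzd7 were expressed in both lines. Fzd2 ran from 48.5 to 62.5 CPM in AML12 and from 46.9 to 74.9 in HL-1, and Fzd7 from 46.4 to 70.6 and from 93.3 to 181.

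Hgf, a growth factor made by mesenchymal cells, had a median of 28.9 CPM in HL-1 and 2 counts over the AML12 libraries, and its receptor gene Met was high in both lines, with medians of 320 CPM in AML12 and 212 in HL-1. Il33, an alarmin, ran from 355 to 1485 CPM in HL-1 (median 865) and from 52.5 to 84.3 in AML12 (median 66.2). Ccl20, a chemokine of epithelia, ran from 86.2 to 146 CPM in AML12 (median 114) and had 0 counts in HL-1, at least 4839-fold higher.

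Among 11 tested genes of the EGF receptor system, 7 were higher in AML12 and 4 in HL-1. Tgfa ran from 68.4 to 80.0 CPM in AML12 (median 77.1) and from 10.3 to 12.7 in HL-1 (median 10.9), at -2.76 ± 0.04. AML12 is known to carry a TGFα transgene, and how many of these counts stem from it was not tested. Errfi1, a feedback inhibitor of the EGF receptor, was higher in HL-1, at 245 to 639 CPM (median 447) against 25.0 to 33.1 (median 29.2).

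Of 28 tested integrin and basement membrane genes, 14 were higher in AML12, 12 in HL-1 and 2 did not pass. These shares lie near the 47% and 45.6% of all tested genes. By the stricter count 12 were higher in AML12 and 8 in HL-1, against 21.9% and 20.3% of all tested genes. The collagen receptor subunit Itga2 ran from 348 to 406 CPM in AML12 (median 369) and from 0 to 0.190 in HL-1, at -13.95 ± 0.10. Nid1, a linker of basement membrane, ran from 594 to 758 CPM in HL-1 (median 663) and from 0.701 to 1.69 in AML12 (median 0.999), at 9.30 ± 0.06. Itgb1, the common β subunit, did not pass, with means of 876 CPM in AML12 and 896 in HL-1.

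Genes of general metabolism went both ways in most lists. Of 35 respiratory chain genes, 17 were higher in HL-1, 13 in AML12 and 5 did not pass, with a median of 0.07. By the stricter count, which held 42.2% of all tested genes in either direction, these were 5 and 4. Of 24 cholesterol genes, 10 were higher in HL-1, 11 in AML12 and 3 did not pass, and 1 and 4 by the stricter count. Their median of 0.02 became -0.41 in the earlier libraries alone. Of 23 tested genes of fatty acid oxidation, 10 were higher in HL-1 and 12 in AML12, and 4 and 7 by the stricter count. Their median of -0.09 became 0.17 in the later libraries alone. Of 16 tested genes of fatty acid synthesis and storage, 2 were higher in HL-1 and 13 in AML12, 1 and 8 by the stricter count, with a median of -1.07. The lists of liver and muscle isoforms of paired enzymes did not separate the lines by name, since 10 of 14 liver forms and 11 of 16 muscle forms were higher in AML12. The median of the muscle forms was -0.59, and 0.020 in the later libraries alone.

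Single metabolic genes still stood out. Scarb1, the receptor for high density lipoprotein, ran from 47.4 to 59.3 CPM in HL-1 (median 53.4) and from 0.632 to 0.918 in AML12 (median 0.687), at 6.16 ± 0.08. Pdk4, which holds back pyruvate oxidation, ran from 32.4 to 51.0 CPM in HL-1 (median 39.7) and from 0 to 0.181 in AML12, at 9.40 ± 0.14. Nqo1, a quinone reductase and a classic NRF2 target, ran from 96.5 to 281 CPM in HL-1 (median 177) and from 0.0605 to 0.404 in AML12 (median 0.188), at 9.64 ± 0.08.

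For Nqo1 the other 24 genes of the glutathione and drug defence list give the setting: 10 of 25 tested were higher in HL-1, 12 in AML12 and 3 did not pass. Gclc, Gsr and Hmox1, also known as NRF2 targets, were higher in AML12, with means of 373, 256 and 192 CPM against 100.5, 75.3 and 46.4 in HL-1.

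Of the 18 core clock genes, 12 were higher in HL-1 and 6 in AML12, and 6 and 2 by the stricter count, with a median of 0.44. Clock, an activator of the loop, ran from 154 to 187 CPM in HL-1 (median 169) and from 58.5 to 71.9 in AML12 (median 63.8), at 1.39 ± 0.03. Bhlhe40, a repressor of the loop, ran from 425 to 606 CPM in AML12 (median 526) and from 76.7 to 326 in HL-1 (median 187), at -1.71 ± 0.03. Arntl, the partner of Clock, depended on time: in HL-1 it was 18.0 ± 0.70 CPM at 16 h and 43.9 ± 0.70 at 28 h, and in AML12 20.7 ± 0.92 at 17 h and 20.1 ± 1.87 at 25 h (SD, n = 4). Its line difference was 1.33 ± 0.09 larger in the later libraries.

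Among genes of the glucocorticoid response, 11 of 15 tested were higher in AML12, 3 in HL-1 and 1 did not pass. The stricter count held 4 with AML12 higher and 2 with HL-1 higher, against 21.9% and 20.3% of all tested genes. Summed levels overlapped, at 1166 to 1391 CPM in AML12 and 864 to 1726 in HL-1. The receptor gene Nr3c1 was expressed in both lines, at 191 to 216 CPM in AML12 (median 204) and 146 to 174 in HL-1 (median 164). Fkbp5, a target of the receptor, ran from 101 to 113 CPM in AML12 (median 106) and from 45.5 to 69.99 in HL-1 (median 57.0), at -0.91 ± 0.03.

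The line difference was then compared between the later libraries (HL-1 at 28 h against AML12 at 25 h) and the earlier ones (HL-1 at 16 h against AML12 at 17 h). It changed for 54.6% of tested genes, 27.3% upwards and 27.3% downwards. The intervals between the times are not the same in the lines. Nos2, the inducible nitric oxide synthase, went from 0.0147 ± 0.0293 to 50.7 ± 7.80 CPM in HL-1 and from 59.4 ± 7.12 to 123 ± 5.12 in AML12 (SD, n = 4). In HL-1 this was 1 count over the 4 libraries at 16 h and 3281 at 28 h, a ratio of 3247 (exact 95% interval 582 to 128300). The fitted change of the line difference therefore depends on the prior count and is no bound.

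Selenbp1, a selenium-binding protein, went from 0.875 ± 0.170 to 26.1 ± 3.63 CPM in HL-1 and from 201 ± 20.7 to 157 ± 3.29 in AML12 (SD, n = 4), a change of 5.24 ± 0.17. For Nos2 and Selenbp1 the HL-1 mean was higher at 28 h than at 16 h. In the other direction, Egr1, an immediate early transcription factor, went from 51.6 ± 2.99 to 44.5 ± 0.64 CPM in HL-1 and from 5.05 ± 0.53 to 22.1 ± 1.49 in AML12, a change of -2.34 ± 0.10. Cnn1, a smooth muscle calponin, went from 5.00 ± 0.61 to 18.7 ± 0.92 CPM in AML12 and reached at most 1.05 CPM in any HL-1 library, a change of -2.58 ± 0.40.

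**Figure D5:**
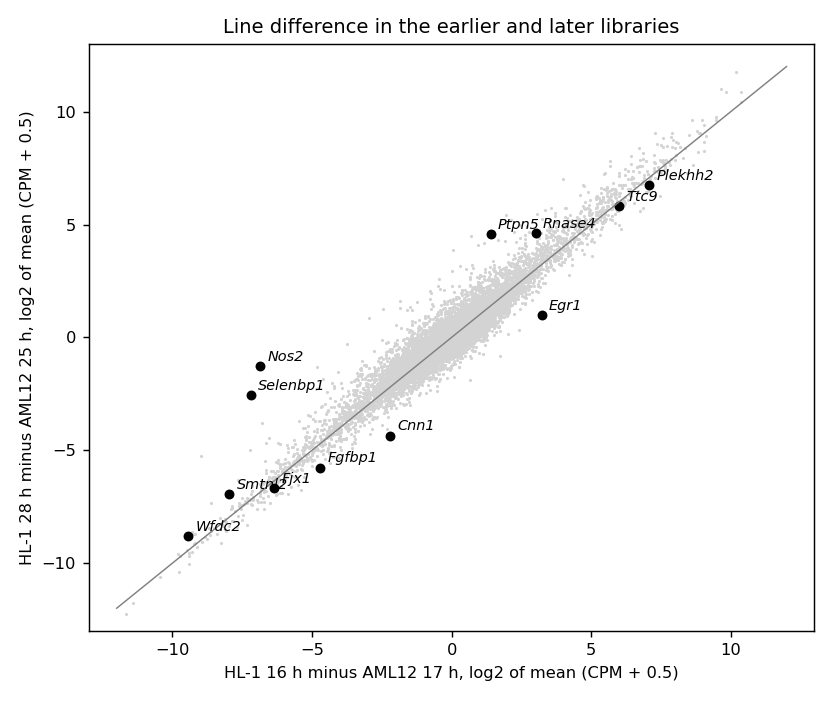
Line difference of the later libraries (vertical) against that of the earlier libraries (horizontal), as log2 ratios of group mean CPM plus 0.5, for all tested genes, with the diagonal as equality. Most genes lie along the diagonal, Nos2 and Selenbp1 lie above it and Egr1 and Cnn1 below it.

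A limit holds for all of these values. The HL-1 table lists 5506 protein-coding genes that are not in the AML12 table, 135 of them with a mean of at least 10 CPM in HL-1, and 7 of the 135 have their symbol in the AML12 table under another ID. Ckap4, for a membrane protein of the endoplasmic reticulum with an HL-1 mean of 327 CPM, is one of those without an AML12 value and was picked after its values were seen. Of the tested genes, 6853 overlap another gene in GENCODE M21, among them Hnf4a, Des, Krt8, Pax2, Zeb2 and Col1a2. Overlap was taken from whole gene spans on either strand, introns included, and overlap of exons was not computed. The strand setting of the counts is not given in the sources used here. How many reads of these genes fall where exons overlap is therefore not known.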

How the data were processed

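The analysis starts from 2 deposited tables of raw read counts per gene, 1 per cell line, which the authors made with STAR on mm10 (GRCm38) after FastQC 0.11.8, per the submitters' processing notes. Which program counted reads, with which strand setting and gene annotation, is not given in the sources used here. RNA was taken with TRIzol and libraries made with NEBNext Ultra II reagents, per the labels' protocols. The AML12 table holds 27843 gene IDs, each with at least 1 count, and that of HL-1 has 55414 versioned IDs. No per-sample column was left unmapped.

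Control columns were joined by gene ID. Symbols follow the AML12 table, and 533 joined genes have another symbol in HL-1, so the annotations differ. Genes kept by edgeR's filterByExpr were TMM-scaled. The test was edgeR's (4.0.16, R 4.3.3) quasi-likelihood F test, with 1 mean per group of 4 libraries. The line contrast averages both times, and the second contrast takes the later minus the earlier line difference. Both were adjusted by Benjamini-Hochberg. Ratios against 0 counts are bounds against 3 counts over 8 libraries, and those against 1 to 3 counts carry exact 95% intervals. Bounds and intervals reflect counting error only. The fit was also run on simulated counts in which few genes changed, and by small amounts. Most genes differed in the real data, so that run does not check the error rates here. Alternatives were other scalings and tools (DESeq2 1.42.0, limma 3.58.1), filters, gene sets, blocks, times and leaving out each library.

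Named genes were the 6 markers, the 12 largest non-overlapping differences each way with at least 10 CPM in the higher line, up to 6 genes per list by mean level, the 10 highest per line and 6 each way for the second contrast, plus any list member. The members and the 34 lists were chosen with earlier results of these data known. The skeletal muscle lineage and kidney lists, Mtap, Ckap4 and the ligand and receptor pairs were picked after values were seen. Libraries of 1 group differed by more than sampling noise, with chi-square per degree of freedom from 1.89 to 10.7 between pairs. Some genes are not reported here.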

Additional observations from a re-analysis of the deposited data

Results flagged for a closer look

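Some values outside the joined coding genes were high in HL-1. Xist, the RNA that silences 1 X chromosome in female cells, had a mean of 1718 CPM in the 8 HL-1 libraries and 26 counts over the 8 AML12 libraries. H19, an imprinted RNA, had a mean of 159 CPM in HL-1 and 0 counts in AML12, and in HL-1 it was 80.5 ± 5.56 CPM at 16 h and 238 ± 27.9 at 28 h (SD, n = 4). Myod1, Myf5 and Col3a1, which are not in the AML12 table, had HL-1 means of 20.3, 30.4 and 1636 CPM.

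The line difference changed between the earlier and later libraries, by edgeR's quasi-likelihood test, for the genes named by rule. Selenbp1 changed by 5.24 and Egr1 by -2.34. Arntl, a clock gene named in the report, changed by 1.33. For others the change rests on few counts in 1 line or group, depends on the prior count and is no bound: Nos2 at 10.03 (1 count over the HL-1 libraries at 16 h), Smtnl2 at 6.34 (56 over the HL-1 libraries), Ptpn5, a tyrosine phosphatase, at 4.99 (53 in AML12), Cnn1 at -2.58 (73 in HL-1), Rnase4 at 5.15 (6 in AML12), Wfdc2 at 4.79 (12 in HL-1), Fgfbp1 at -2.70 (67 in HL-1), Ttc9 at -3.21 (4 in AML12), Fjx1 at -3.77 (6 in HL-1) and Plekhh2 at -4.13 (8 in AML12).

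Of 354 sets of 4 libraries examined for genes named in the report, 14 had 1 library far from the other 3, and chance alone sets about 1 in 20 apart. In AML12 at 17 h these were replicate 3 for Nkx2-5 (4.88 CPM) and Prox1 (15.2), replicate 1 for Scarb1 (0.673) and replicate 4 for Gsr (246). In AML12 at 25 h they were replicate 1 for Hoxb6 (14.0) and Gsr (259), replicate 2 for Wnt7b (390.0), Nid1 (1.33) and Itgb1 (835), and replicate 3 for Gclc (289). In HL-1 they were replicate 1 at 16 h for Fkbp5 (64.6), and at 28 h replicate 1 for Chrna1 (77.3), replicate 2 for Vim (6975) and replicate 3 for Bhlhe40 (326).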

How the results depend on the processing

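Counts of called genes stayed within 1.5 times under all alternatives but 2. With the 5617 tested genes that overlap no other gene, 5199 were called, 2626 higher in HL-1 and 2573 in AML12, and the second contrast gave 3093 (1606 above and 1487 below 0), as fewer genes were tested. A test against a 2-fold difference gave 5134, 2469 higher in HL-1 and 2665 in AML12. Leaving out each library in turn gave 11558 to 11636 called genes, 5689 to 5900 higher in HL-1 and 5695 to 5916 in AML12. For the second contrast it gave 6546 to 6902, 3231 to 3439 above and 3287 to 3463 below 0. With the replicate number as a block, 5688 and 5852 genes were called, and 3370 and 3394 in the second contrast. Equal numbers are not known to pair libraries: the largest correlation of their deviations was 0.0455 in size.

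Of the single-gene results, 6871 kept direction and call, 96 lost the call, 28 gained it and 16 changed sign, all 16 with 1 pair of times alone. In the earlier libraries these were Tpm1 (0.040), Sqle (-0.10), Hmgcs1 (-0.092) and Ccnd1 (0.15). In the later ones they were Fah (0.11), Spp1 (-0.038), Tjp1 (0.22), Mt1 (0.60), Ldha (0.36), Slc25a5 (-0.12), Hk1 (0.020), Scd2 (0.0096), Scd1 (0.28), Cpt1a (0.050), Hadh (0.17) and H2-K1 (0.48).

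List medians changed sign as follows. For imprinted genes the median was 0.41 with no low-count filter, 0.10 with quantile scaling, 1.12 with genes overlapping no other gene, from -0.07945 (without replicate 4 of AML12 at 17 h) to 0.07267 (without replicate 4 of AML12 at 25 h) with each library left out and 0.29 in the later libraries. Endothelial genes had 0.42 with no filter and 0.030 in the later libraries. With genes overlapping no other gene, cardiac transcription factors had -0.11 and stellate and mesothelial genes -1.22. The earlier libraries gave -0.41 for cholesterol genes and 0.024 for ribosomal protein genes, and the later ones 0.020 for muscle isoforms and 0.17 for fatty acid oxidation. The cause was not tested. Depth limits genes near 0 counts, whose bounds are 0.0234 CPM in HL-1 and 0.0241 in AML12.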

Other observations

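Of 30 ribosomal protein genes, 11 were higher in HL-1, 16 in AML12 and 3 did not pass, with a median of -0.12 that became 0.024 in the earlier libraries alone. By the stricter count 2 were higher in HL-1, Rps2 and Rps18, and 2 in AML12, Rplp1 at -1.17 and Rps14 at -1.30. Rps2 had a mean of 386 ± 27.3 CPM in HL-1 and 45.1 ± 5.86 in AML12, and Rps18 had 569.9 ± 48.2 and 39.4 ± 5.20 (SD, n = 8). Both have near-identical copies in the mouse genome, so their counts are uncertain, and whether the tables assigned shared reads in the same way was not tested. Among the respiratory chain genes, Atp5o, for a subunit of ATP synthase, had 2.36 ± 0.51 CPM in HL-1 and 45.7 ± 4.56 in AML12. Of the genes for other subunits, Atp5b, Atp5c1 and Atp5f1 were higher in HL-1 and Atp5a1 in AML12. Whether the tables assigned the reads of Atp5o in the same way was not tested.

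Imprinted and antigen presentation genes gave further single contrasts. Peg3 ran from 550.4 to 813 CPM in AML12 (median 682) and from 58.8 to 68.2 in HL-1 (median 61.8), and Peg10, which is not in the AML12 table, had an HL-1 mean of 285 CPM. Of 17 tested antigen presentation genes, 9 were higher in AML12, 5 in HL-1 and 3 did not pass, and 5 and 5 by the stricter count. Tap1, a peptide transporter of that pathway, had 3.07 to 4.44 CPM in HL-1 (median 3.38) and 4 counts over the AML12 libraries. The 4 Y-linked genes listed had 1 count between them over the HL-1 libraries and are not in the AML12 table.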
